A study of Rattus norvegicus with 20 samples.

Results

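The rosiglitazone arrays were compared with the resveratrol arrays in epididymal fat of male ZDF rats, a comparison of 2 treated groups with each other and not with an untreated one. The members were chosen by title: 5 arrays titled rosiglitazone and 5 titled resveratrol, 10 of the 20 arrays of the series, read across all 14557 genes that the array annotation pairs with a symbol of their own. The 5 obese and 5 lean control arrays are given as levels beside the treated ones and entered the model only through its estimate of the spread. All animals are labelled ZDF (Zucker diabetic fatty) with the strain given as Zucker, and were kept under reversed light of 12 h light and 12 h dark. Rosiglitazone and resveratrol rats carry only the name of the compound in their titles; obese rats ate a stock diet for 6 weeks and lean control rats a standard chow. The labels state no dose, route or duration for either compound, no diet for the treated rats, and not whether they were of the obese genotype. The 2 compounds were therefore compared as given, with no claim of matched dose. Each array is numbered in its title as a biological replicate and nothing pairs the numbers across groups. Each p-value sets the difference between the 2 treated groups against a spread within groups that was estimated from all 20 arrays.

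Values are log2 signal units as the authors deposited them. A mean under 3.107, the 95th percentile of 1282 olfactory, vomeronasal and taste receptor genes, is called near background here. The labels name the tissue only as epididymal. Genes of fat cells were bright: Adipoq, which encodes the hormone adiponectin, averaged 10.95 ± 0.10 log2 units with rosiglitazone and 11.03 ± 0.03 with resveratrol (SD, n = 5 each). In contrast, none of 18 measured genes of epididymal epithelium and sperm had a mean above background in either treated group, with array means of that list between 1.5 and 1.70 with rosiglitazone and between 1.57 and 1.73 with resveratrol. The library labelled lean control array 3 stood apart from its group. Over 7010 genes above background, its root mean square distance was 0.658 log2 units to the mean of the other lean control arrays and 0.349 to the obese mean, while each of the other lean control arrays was nearer to its own group (0.329 to 0.48) than to the obese mean (0.464 to 0.647). Lep, for example, read 10.27 on it, against 7.24 to 8.10 on the other lean control arrays. Lean control means are therefore given with and without it. An alternative without this array, chosen after seeing the data, called 1384 genes, among them all 1100 of the reported model in the same direction.

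Rosiglitazone is a thiazolidinedione that binds PPAR-gamma, the nuclear receptor that drives fat cell formation and lipid storage and pairs with the retinoid X receptor on DNA. In fat, its known targets include genes of fatty acid uptake, handling and oxidation. Resveratrol is a plant polyphenol of another structural class, a stilbene, studied for effects on the deacetylase sirtuin 1 and on AMP-activated kinase, which senses a low energy state. Pparg and Sirt1 were not analysed here, as no probe set carries either symbol by itself.

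With rosiglitazone, genes of fatty acid oxidation, of the tricarboxylic acid cycle, of the respiratory chain and of fatty acid synthesis were higher than with resveratrol, as were several matricellular genes. Marker genes of endothelial cells and of fibroblasts were lower, as were individual genes such as C1qtnf9, Nnat and Ace. In whole tissue, fewer cells of a type and less RNA per cell cannot be told apart. In limma with Benjamini-Hochberg adjustment, 1100 of 14557 genes (7.56%) differed at an adjusted p under 0.05. Of these, 820 (5.63%) were higher and 280 (1.92%) lower with rosiglitazone. At least 2-fold differences were found for 218 of the higher and 92 of the lower genes, and at least 4-fold ones for 24 higher and 7 lower genes. The 5 rosiglitazone arrays and the 5 resveratrol arrays did not overlap for 1156 genes (7.94%), 890 of them higher (6.11%) and 266 lower (1.83%). In all, 823 genes both differed and did not overlap. Most of the genes that differed, 1024, had a mean above background in 1 or both groups. The analysis was repeated under 19 alternatives of processing and of arrays left out, and where a named gene that passed did not pass in each alternative that tested it, the number is given beside it. A gene whose mean over all 20 arrays was near background was tested in 18 of them, as 1 alternative was limited to genes above background. In that alternative 846 of 7010 genes were higher and 282 lower, larger shares than over all genes. Shares over all genes are thus a low mark for lists whose members are mostly above background. A fold written as about has a lower mean near background, so its size is approximate. Higher genes made up 74.5% of the calls, and this split depended on the scaling. With quantile normalization 580 were higher and 506 lower (53.4% higher). With each array's signal SD as a covariate 675 were higher and 516 lower (56.7% higher). The median log2 difference was 0.04 over all genes and 0.14 over the 6764 genes above background in both groups. Of these 6764 genes, 5814 (86%) had a 95% interval of the difference that lay within 2-fold either way.

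**Figure D1:**
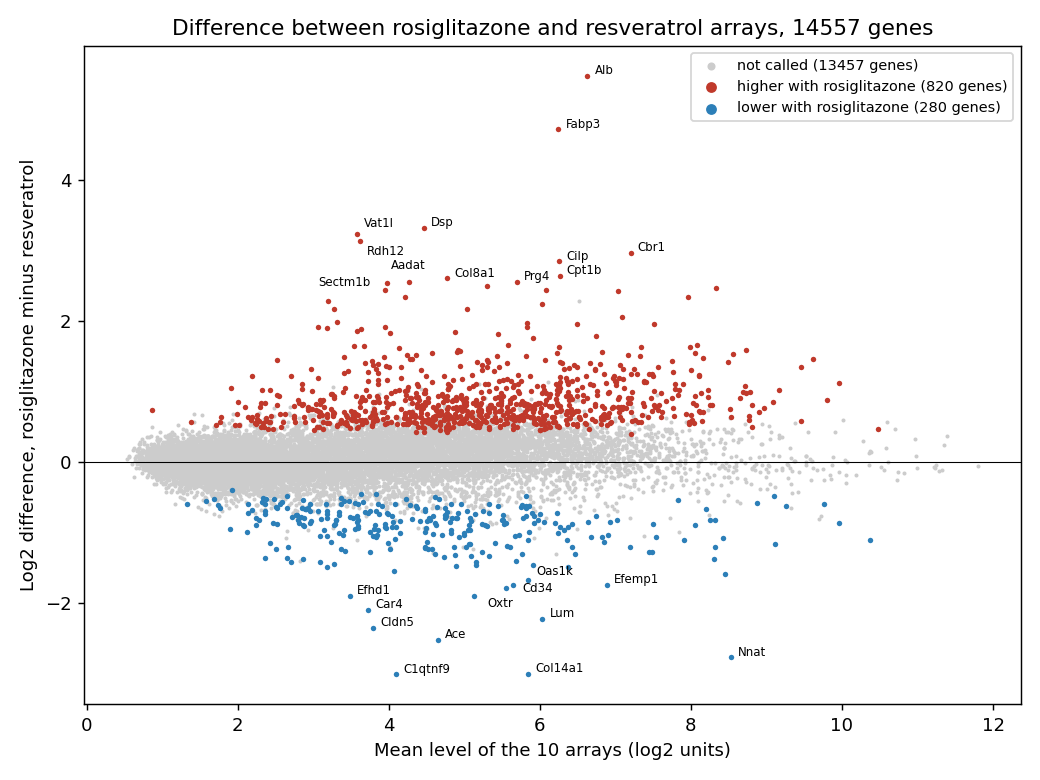
Log2 difference, rosiglitazone minus resveratrol (vertical axis), against the mean log2 level of the 10 arrays (horizontal axis), 1 point per gene, with genes that differed at an adjusted p under 0.05 in red (820 higher with rosiglitazone) and blue (280 lower). Alb and Fabp3 stand above all other genes, and C1qtnf9 and Col14a1 have the lowest differences.

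Fabp3, the fatty acid binding protein of heart and muscle, had, with Dsp, the smallest adjusted p of all genes. Its levels were 8.78, 8.79, 7.88, 8.91 and 8.64 log2 units in the 5 rosiglitazone arrays, against 3.19, 4.74, 4.14, 3.92 and 3.49 in the 5 resveratrol arrays. Every rosiglitazone array was above every resveratrol array by more than 3 log2 units, and resveratrol levels were close to 3.72 ± 0.33 in obese and 3.23 ± 0.59 in lean control arrays (SD, n = 5 each; 2.99 ± 0.29 in 4 lean control arrays without array 3). For Fabp3 the groups did not overlap and the log2 difference was 4.71 ± 0.27 (SE), 26.1-fold higher, with an adjusted p of 1.78e-11. Alb, the plasma protein albumin made mainly in liver, had the largest difference. It read 9.29, 9.61, 9.42, 9.90 and 8.61 log2 units in the 5 rosiglitazone arrays, against 4.01, 3.70, 4.27, 3.63 and 3.86 in the 5 resveratrol arrays. For Alb the groups did not overlap and the log2 difference was 5.47 ± 0.52 (SE), 44.5-fold higher, with an adjusted p of 1.38e-07. Its levels varied without treatment, from 3.46 to 7.42 log2 units in obese and from 4.32 (array 3) to 6.65 in lean control arrays. Every lean control array was above every resveratrol array for this gene. Of 17 measured liver-secreted proteins, albumin alone was higher, and 14 were near background in both groups. The other two were bright in both: transferrin (Tf), an iron carrier, was lower (log2 difference -0.88 ± 0.21, 1.84-fold), and the retinol carrier Rbp4, named here after its values were seen, did not pass the test (8.74 ± 0.50 log2 units with rosiglitazone and 8.33 ± 0.34 with resveratrol).

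Several genes were near background with resveratrol and well measured with rosiglitazone. Dsp, which encodes desmoplakin, the protein that links desmosomes to intermediate filaments, read 5.85, 6.14, 5.82, 6.42 and 6.37 log2 units in the 5 rosiglitazone arrays, against 3.01, 2.74, 2.33, 2.99 and 3.0 in the 5 resveratrol arrays. For Dsp the groups did not overlap and the log2 difference was 3.31 ± 0.19 (SE), about 9.89-fold higher, with an adjusted p of 1.78e-11. The groups were more than 2 log2 units apart at their closest, and the means were 3.10 log2 units in obese and 2.92 in lean control arrays (2.85 without array 3). Vat1l (log2 difference 3.23 ± 0.21, about 9.36-fold), Rdh12, a retinol dehydrogenase (log2 difference 3.13 ± 0.22, about 8.74-fold), Sectm1b (log2 difference 2.54 ± 0.20, about 5.83-fold) and Aadat, a mitochondrial aminotransferase of kynurenine and aminoadipate (log2 difference 2.55 ± 0.22, about 5.86-fold), followed the same pattern, and their groups did not overlap. Cbr1, a carbonyl reductase, differed from these in its untreated levels. It read 8.85, 9.27, 7.89, 9.21 and 8.19 log2 units in the 5 rosiglitazone arrays, against 5.82, 5.46, 6.54, 5.68 and 5.10 in the 5 resveratrol arrays. For Cbr1 the groups did not overlap and the log2 difference was 2.96 ± 0.36 (SE), 7.8-fold higher, with an adjusted p of 5.43e-06. Its mean in lean control arrays, 7.81 (8.27 without array 3) log2 units, was nearer to the rosiglitazone mean of 8.68 than to the resveratrol mean of 5.72, whereas obese arrays averaged 5.82.

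At the other end, C1qtnf9, a secreted relative of adiponectin made in fat, read 1.92, 1.70, 3.13, 3.15 and 3.03 log2 units in the 5 rosiglitazone arrays, against 5.74, 5.62, 5.78, 5.64 and 5.22 in the 5 resveratrol arrays. For C1qtnf9 the groups did not overlap and the log2 difference was -3.01 ± 0.30 (SE), about 8.08-fold lower, with an adjusted p of 1.94e-07. The means were 5.58 log2 units in obese and 5.16 in lean control arrays (4.88 without array 3). With the mean of its probe sets in place of the brightest, the difference of C1qtnf9 was -1.56. Nnat, which encodes the imprinted membrane protein neuronatin, read 6.78, 6.38, 7.13, 6.79 and 8.63 log2 units in the 5 rosiglitazone arrays, against 9.78, 10.34, 10.08, 9.65 and 9.70 in the 5 resveratrol arrays. For Nnat the groups did not overlap and the log2 difference was -2.77 ± 0.30 (SE), 6.83-fold lower, with an adjusted p of 8.97e-07. Rosiglitazone array 5 was the highest of its group for this gene but still below all resveratrol arrays. With the mean of its probe sets the difference of Nnat was -2.09. Ace, angiotensin-converting enzyme, which sits on the endothelial surface, read 3.29, 3.39, 4.01, 2.61 and 3.68 log2 units in the 5 rosiglitazone arrays, against 6.39, 6.20, 5.87, 5.66 and 5.43 in the 5 resveratrol arrays. For Ace the groups did not overlap and the log2 difference was -2.52 ± 0.27 (SE), 5.72-fold lower, with an adjusted p of 1.01e-06. Car4, a membrane carbonic anhydrase (log2 difference -2.10 ± 0.21, about 4.27-fold), Efhd1, a mitochondrial calcium-binding protein (log2 difference -1.90 ± 0.28, about 3.73-fold), and Oas1k, of the family of oligoadenylate synthetases (log2 difference -1.68 ± 0.29, 3.21-fold), were also lower with no overlap. Oxtr, the oxytocin receptor, was lower in the reported model (log2 difference -1.78 ± 0.53, 3.44-fold, adjusted p = 0.0381; passed in 9 of 19 alternatives).

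**Figure D2:**
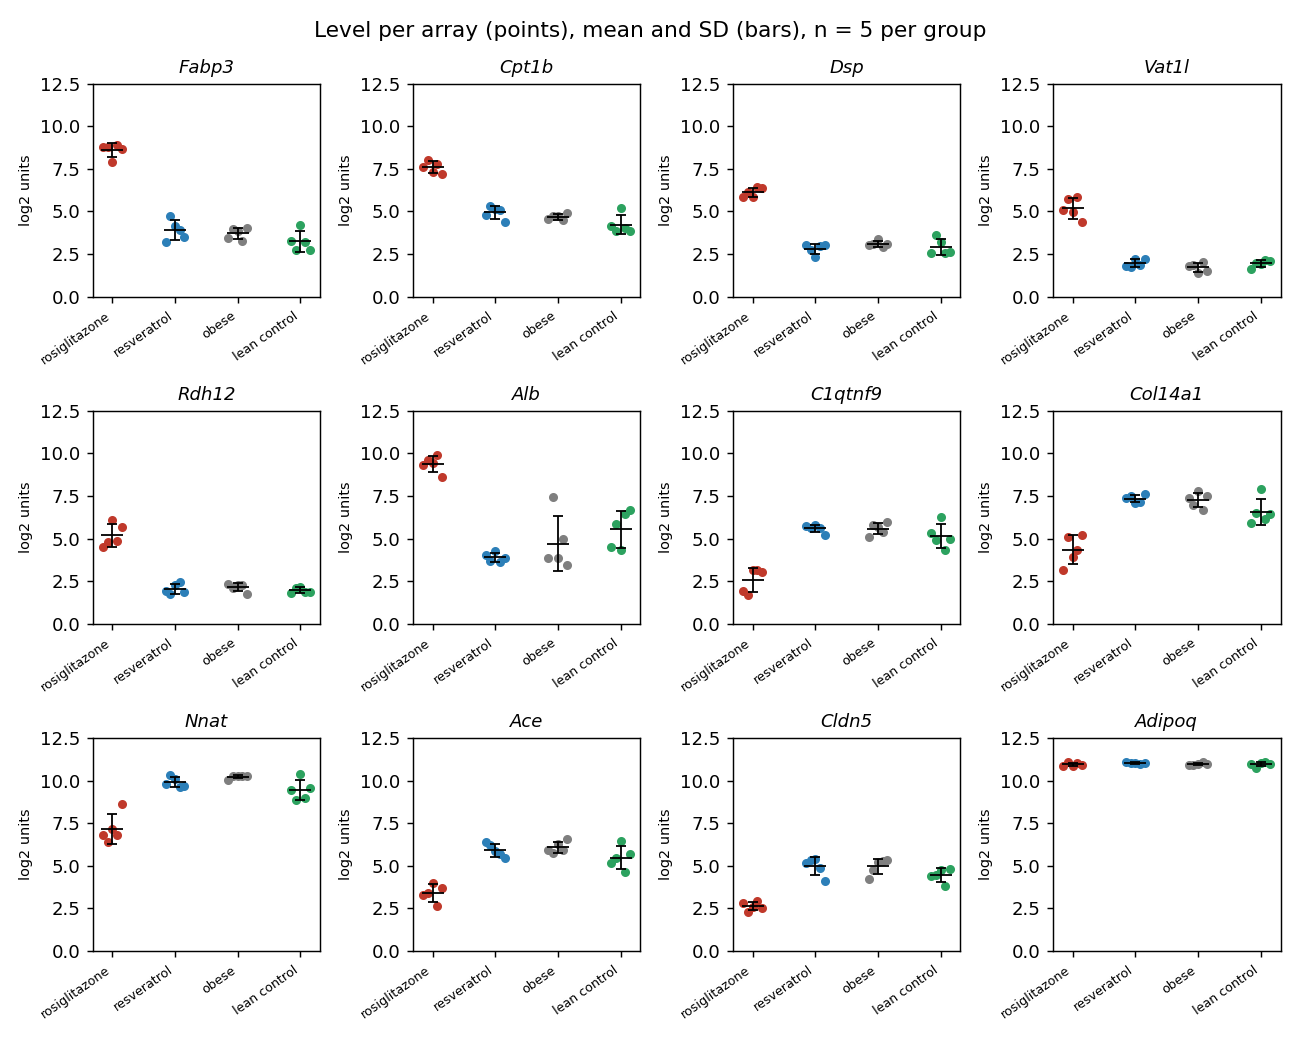
Levels of 12 genes in log2 units (vertical axis) by group (rosiglitazone, resveratrol, obese, lean control), 1 point per array with the mean and SD, n = 5 per group. Fabp3, Cpt1b, Dsp, Vat1l, Rdh12 and Alb are higher with rosiglitazone, C1qtnf9, Col14a1, Nnat, Ace and Cldn5 are lower, and Adipoq is bright in all 4 groups.

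Mitochondrial fatty acid oxidation shortens fatty acids to acetyl-CoA after the carnitine system has carried them in. Of 25 measured genes of this list, 21 were higher with rosiglitazone, with a median log2 difference of 1.19. The mean of the list per array ran from 6.88 to 7.31 log2 units with rosiglitazone, above all resveratrol arrays at 5.78 to 6.26 and all obese arrays at 5.72 to 6.05. Cpt1b, the muscle form of the carnitine palmitoyltransferase that admits fatty acids to mitochondria, read 7.63, 8.02, 7.29, 7.79 and 7.19 log2 units in the 5 rosiglitazone arrays, against 4.76, 5.32, 5.15, 5.07 and 4.40 in the 5 resveratrol arrays. For Cpt1b the groups did not overlap and the log2 difference was 2.64 ± 0.22 (SE), 6.25-fold higher, with an adjusted p of 1.76e-08. Next to it, the carnitine carrier Slc25a20 was higher (log2 difference 1.45 ± 0.16, 2.72-fold), as were the long-chain dehydrogenase Acadl (log2 difference 1.66 ± 0.16, 3.15-fold), the thioesterase Acot2 (log2 difference 1.51 ± 0.16, 2.85-fold) and the hydroxyacyl-CoA dehydrogenase Hadh (log2 difference 1.47 ± 0.19, 2.77-fold). The electron transfer genes Etfa (log2 difference 1.31 ± 0.20, 2.48-fold) and Etfdh (log2 difference 1.27 ± 0.20, 2.41-fold), which pass electrons from these dehydrogenases to coenzyme Q, were higher too. In peroxisomes, which oxidize very long and branched fatty acids, 9 of 22 measured genes were higher (median 0.46), among them the carnitine octanoyltransferase Crot (log2 difference 1.18 ± 0.18, 2.26-fold), the bifunctional enzyme Hsd17b4 (log2 difference 1.13 ± 0.17, 2.18-fold) and the membrane proteins Pex3 (log2 difference 1.08 ± 0.21, 2.11-fold) and Pxmp2 (log2 difference 1.19 ± 0.21, 2.28-fold).

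Among 34 measured genes listed as targets of PPAR receptors, 17 were higher and the median log2 difference was 0.68. These included Fabp3, Cpt1b, Acadl, Slc27a1, a fatty acid transporter (log2 difference 1.97 ± 0.21, 3.91-fold), and Cyp4b1, a fatty acid hydroxylase (log2 difference 2.34 ± 0.27, 5.08-fold). In limma 0 members of the list were lower, also at an unadjusted p under 0.05. Ppara, the receptor of the same family that controls fatty acid oxidation in liver, was itself higher and read 4.85, 4.30, 4.88, 5.16 and 3.99 log2 units in the 5 rosiglitazone arrays, against 3.41, 3.47, 3.12, 3.48 and 2.92 in the 5 resveratrol arrays. For Ppara the groups did not overlap and the log2 difference was 1.36 ± 0.19 (SE), 2.56-fold higher, with an adjusted p of 4.56e-05. Its resveratrol mean lay close to background. Pdk4, the kinase that turns off pyruvate dehydrogenase when fat is burned, was higher (log2 difference 1.59 ± 0.37, 3.02-fold, adjusted p = 0.00635). Bright targets of the list did not pass the test: Fabp4, the main fatty acid binding protein of fat cells, had 11.19 ± 0.10 log2 units with rosiglitazone and 11.28 ± 0.08 with resveratrol with a 95% interval of the difference of -0.32 to 0.14. The lipoprotein lipase gene Lpl had an interval of -0.35 to 0.13, the scavenger receptor Cd36 one of -0.39 to 0.12 and the lipid droplet coat gene Plin1 one of -0.31 to 0.37, all on the log2 scale.

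Genes for making fatty acids were higher as well. In the list of fatty acid synthesis and elongation, 8 of 17 measured genes were higher and the median was 0.79. Elovl6, which elongates palmitate, read 8.68, 9.42, 7.56, 8.40 and 7.19 log2 units in the 5 rosiglitazone arrays, against 5.47, 5.85, 5.84, 5.93 and 6.05 in the 5 resveratrol arrays. For Elovl6 the groups did not overlap and the log2 difference was 2.42 ± 0.38 (SE), 5.37-fold higher, with an adjusted p of 0.000142. The malic enzyme gene Me1, a source of NADPH, was higher (log2 difference 2.47 ± 0.36, 5.53-fold), as were ATP citrate lyase Acly (log2 difference 1.95 ± 0.33, 3.86-fold), the citrate carrier Slc25a1 (log2 difference 1.42 ± 0.25, 2.67-fold) and the acetyl-CoA synthetase Acss2 (log2 difference 1.30 ± 0.20, 2.47-fold). For Me1 and Elovl6 the resveratrol mean was above the obese mean (7.10 with resveratrol and 6.35 in obese arrays for Me1, 5.83 with resveratrol and 5.28 in obese arrays for Elovl6) and the lean control mean was the lowest (5.64 (5.20 without array 3) for Me1, 4.26 (3.83 without array 3) for Elovl6). Over the lists of oxidation, peroxisomes and synthesis together, 38 of 64 distinct genes were higher, and 0 were lower in limma, also at an unadjusted p under 0.05. Of 16 genes of triglyceride synthesis 1 was higher (6.25%, against 5.63% of all genes). It was the phosphatidate phosphatase Lpin1 (log2 difference 0.79, adjusted p = 0.0203; passed in 14 of 19 alternatives). Of 15 genes of cholesterol synthesis and uptake 1 was higher, the reductase Dhcr7 (log2 difference 0.82, adjusted p = 0.0477; passed in 9 of 19 alternatives), with a median of 0.39 and 7 higher at an unadjusted p under 0.05. That count depended on the model: it was 6 with array weights, 5 in the fit of the 10 treated arrays alone, 4 without lean control replicate 3, 2 without rosiglitazone replicate 3 and 0 with quantile normalization, with the SD covariate or without any 1 of rosiglitazone replicates 1, 2, 4 and 5 and resveratrol replicates 1, 4 and 5.

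For lipolysis and the lipid droplet, 3 of 16 measured genes were higher (18.8%, against 5.63% of all genes). In the same list 1 was lower (6.25%, against 1.92%), and the median was 0.19. Cidea, a droplet protein that promotes fusion of droplets, was higher (log2 difference 1.46 ± 0.35, 2.75-fold), as was Abhd5, the activator of fat triglyceride lipase (log2 difference 0.98 ± 0.15, 1.98-fold). The lipase Pnpla2 itself was higher by a smaller amount (log2 difference 0.46 ± 0.14, 1.37-fold, adjusted p = 0.0397; passed in 10 of 19 alternatives). Hcar1, the lactate receptor that restrains lipolysis, was lower (log2 difference -0.84 ± 0.24, 1.79-fold, adjusted p = 0.0298; passed in 13 of 19 alternatives). Of 15 genes of fatty acid and lipoprotein uptake, 4 were higher: Fabp3, Slc27a1, the oxidized lipoprotein receptor Olr1 (log2 difference 1.75 ± 0.40, 3.37-fold) and the very low density lipoprotein receptor Vldlr (log2 difference 0.63 ± 0.19, 1.55-fold, adjusted p = 0.0429; passed in 9 of 19 alternatives). The median of that uptake list, 0.08, changed sign with quantile normalization (-0.05) and with the SD covariate (-0.03).

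Across the 11 mitochondrial lists, 133 of 259 distinct measured genes were higher with rosiglitazone and the median log2 difference was 0.57. In limma 0 of them were lower, and 3 were lower at an unadjusted p under 0.05. In the same arrays the mean of 19 white fat cell genes overlapped, at 8.60 to 8.88 log2 units with rosiglitazone and 8.29 to 8.89 with resveratrol, while endothelial and fibroblast markers were lower with rosiglitazone, as given further on. The part of these cell types in the mitochondrial differences was not tested. Of 23 genes of pyruvate metabolism and the tricarboxylic acid cycle, 19 were higher (median 0.99). Pyruvate carboxylase, Pc, which makes oxaloacetate from pyruvate, read 8.20, 8.41, 7.84, 8.61 and 7.52 log2 units in the 5 rosiglitazone arrays, against 6.16, 6.47, 6.04, 5.95 and 5.66 in the 5 resveratrol arrays. For Pc the groups did not overlap and the log2 difference was 2.06 ± 0.23 (SE), 4.17-fold higher, with an adjusted p of 1.56e-06. The isocitrate dehydrogenase subunit Idh3a (log2 difference 1.5 ± 0.22, 2.83-fold) and the succinyl-CoA ligase subunits Suclg1 (log2 difference 1.32 ± 0.17, 2.49-fold) and Sucla2 (log2 difference 1.13 ± 0.15, 2.18-fold) were higher as well, each with no overlap.

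The respiratory chain passes electrons through complexes I, III and IV to oxygen and its proton gradient drives ATP synthase. For complex I, 19 of 28 measured genes were higher (median 0.74), led by Ndufv1 (log2 difference 1.15 ± 0.17, 2.22-fold), Ndufa9 (log2 difference 1.14 ± 0.18, 2.2-fold), Ndufs7 (log2 difference 1.05 ± 0.20, 2.08-fold) and Ndufs3 (log2 difference 0.87 ± 0.15, 1.83-fold). For complexes III and IV, 10 of 23 were higher (median 0.54), among them the cytochrome c oxidase subunit Cox7b, which read 7.14, 7.38, 7.09, 7.42 and 6.78 log2 units in the 5 rosiglitazone arrays, against 5.73, 6.20, 5.92, 5.64 and 5.55 in the 5 resveratrol arrays. For Cox7b the groups did not overlap and the log2 difference was 1.35 ± 0.18 (SE), 2.55-fold higher, with an adjusted p of 1.99e-05. The core proteins of complex III, Uqcrc1 (log2 difference 1.09 ± 0.18, 2.12-fold) and Uqcrc2 (log2 difference 1.22 ± 0.19, 2.33-fold), and its small subunit Uqcrq (log2 difference 0.87 ± 0.17, 1.83-fold) were also higher. ATP synthase had 7 of 13 genes higher (median 0.65), with differences below 2-fold, such as Atp5f1b (log2 difference 0.77 ± 0.18, 1.71-fold), Atp5f1d (log2 difference 0.91 ± 0.22, 1.88-fold), Atp5mg (log2 difference 0.76 ± 0.19, 1.69-fold) and Atp5po (log2 difference 0.70 ± 0.17, 1.63-fold). That count was 4 without rosiglitazone replicate 2, without rosiglitazone replicate 4 or without resveratrol replicate 5.

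Machinery that builds mitochondria was higher by smaller amounts. Of 61 genes of the mitochondrial ribosome, 60 had a positive difference and 22 passed the test (median 0.45), with Mrpl49 (log2 difference 1.11 ± 0.20, 2.16-fold), Mrpl35 (log2 difference 0.92 ± 0.15, 1.89-fold), Mrpl38 (log2 difference 0.92 ± 0.15, 1.89-fold) and Mrpl12 (log2 difference 0.87 ± 0.15, 1.83-fold) at the smallest p-values. The count was 12 without rosiglitazone replicate 4 and 11 without resveratrol replicate 5. All 30 genes of protein import and folding had a positive difference and 18 passed (median 0.65), including Dnajc15 (log2 difference 1.42 ± 0.14, 2.67-fold), Timm8a1 (log2 difference 0.95 ± 0.13, 1.94-fold), Pam16 (log2 difference 0.99 ± 0.19, about 1.98-fold) and the chaperone Hspa9 (log2 difference 1.02 ± 0.15, 2.03-fold). By contrast, 26 measured genes of the cytosolic ribosome had a median of -0.04, and 0 differed in limma, with 1 higher and 1 lower at an unadjusted p under 0.05. For coenzyme Q and electron transfer 9 of 14 genes were higher (64.3%, against 5.63% of all genes), among them Coq10b (log2 difference 0.65 ± 0.14, 1.57-fold) and Coq8a (log2 difference 0.98 ± 0.17, 1.98-fold). For carriers of the Slc25 family 8 of 27 were higher (29.6%), among them Slc25a35 (log2 difference 1.13 ± 0.21, 2.18-fold). Of the genes of mitochondrial DNA, biogenesis and dynamics, 4 of 16 were higher, including Chchd3, a protein of the inner membrane folds (log2 difference 0.95 ± 0.16, 1.93-fold), Opa1, which fuses inner membranes (log2 difference 0.77 ± 0.18, 1.71-fold), and the transcription factor Tfb2m (log2 difference 0.71, adjusted p = 0.0241; passed in 14 of 19 alternatives). Ppargc1a, the coactivator known to drive mitochondrial biogenesis, was also called higher (log2 difference 0.84, adjusted p = 0.0178; passed in 17 of 18 alternatives), but with means near background in both groups, 2.73 with rosiglitazone and 1.89 with resveratrol.

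Breakdown of branched-chain amino acids takes place in mitochondria and feeds the same cycle. Of 21 measured genes, 16 were higher (median 0.80), among them Acat1 (log2 difference 1.63 ± 0.19, 3.1-fold), Acadsb (log2 difference 1.43 ± 0.17, 2.69-fold), Hadh and Hibch (log2 difference 1.18 ± 0.19, 2.26-fold). Of 5 genes of ketone body metabolism, 3 were higher (median 1.38): Acat1, the ketone dehydrogenase Bdh1 (log2 difference 1.43 ± 0.22, about 2.7-fold) and the acetoacetyl-CoA synthetase Aacs (log2 difference 1.38 ± 0.34, 2.6-fold). Aacs arrays overlapped between the groups, whereas Bdh1 arrays did not, with a resveratrol mean near background.

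**Figure D3:**
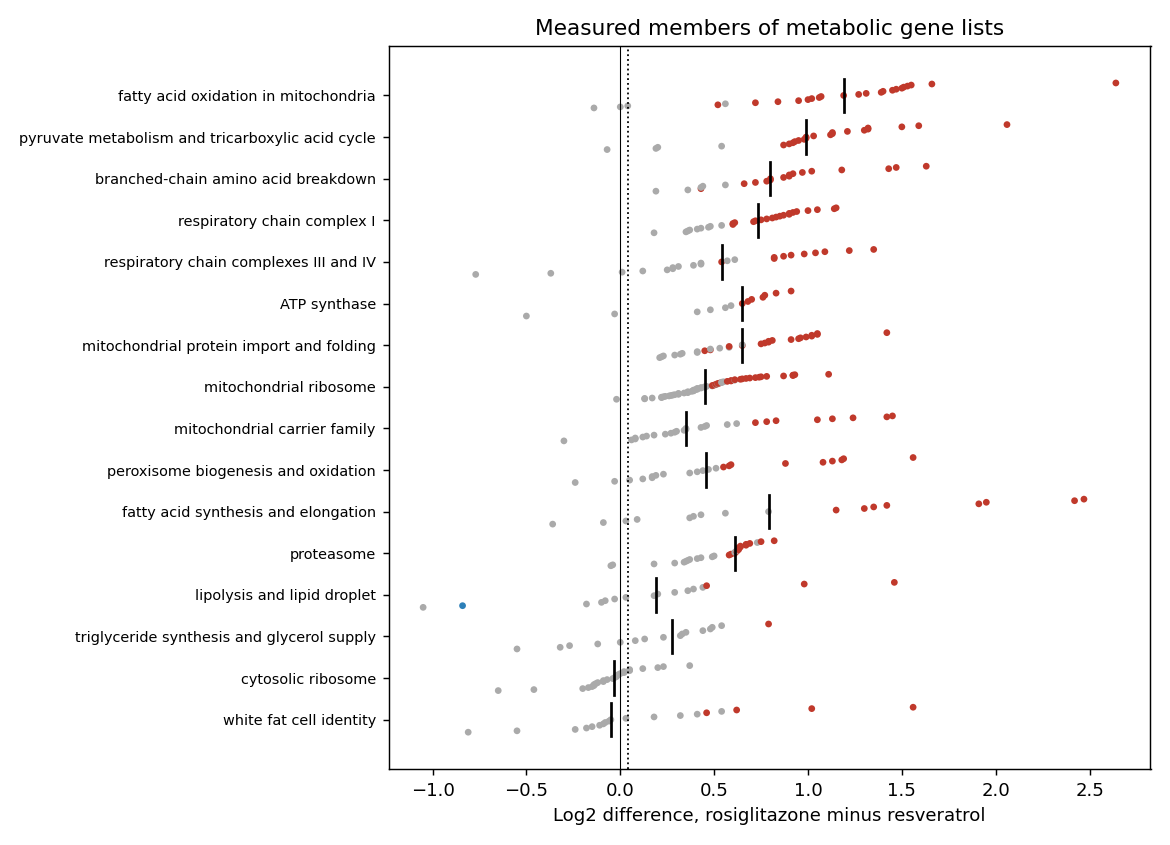
Log2 difference, rosiglitazone minus resveratrol (horizontal axis), of every measured member of 16 gene lists (rows), with members called higher in red, called lower in blue and others in grey, a thick bar at each list's median and a dotted line at the median of all genes, 0.04. Genes above background in both groups had a median of 0.14. Medians run from 1.19 for fatty acid oxidation to -0.05 for white fat cell identity.

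Promoter windows of RefSeq, 250 bases before to 50 bases after each start on the rat assembly GRCr8, were searched on both strands for 3 letter strings known from nuclear receptors and mitochondrial genes. Windows were found for 11787 measured genes, of which 679 were higher and 227 lower with rosiglitazone. The direct repeat AGGTCANAGGTCA, to which PPAR and the retinoid X receptor bind, was in 0 of 679 windows of higher genes, 0 of 227 of lower genes and 4 of 11787 of all measured genes (0.0339%). The extended half-site TCAAGGTCA, known for estrogen-related receptors, was in 5 of 679 (0.736%), 1 of 227 (0.441%) and 34 of 11787 (0.288%). The palindrome GCGCATGCGC, bound by nuclear respiratory factor 1, was in 17 of 679 (2.5%), 1 of 227 (0.441%) and 148 of 11787 (1.26%). The strings do not overlap one another, apart from the half-site AGGTCA that the direct repeat and the extended half-site share. A match here is a description of letters and not of binding, and no match says only that these letters are not in this window.

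The windows of 4 genes that were higher are shown as examples. They are not typical in holding a string, as 17 of 679 windows of higher genes held the palindrome and 5 of 679 the extended half-site. Fabp3, of fatty acid handling, holds none of the 3 strings. Ppara and Atp5po hold the palindrome, and Atp5mc3, chosen after its values were seen, holds the extended half-site. Capitals mark the string. The windows are chr5:147935875-147936174 on the plus strand for Fabp3, chr7:118712357-118712656 on the plus strand for Ppara, chr11:44657434-44657733 on the minus strand for Atp5po and chr3:79220615-79220914 on the minus strand for Atp5mc3, each given 5′ to 3′.
Fabp3: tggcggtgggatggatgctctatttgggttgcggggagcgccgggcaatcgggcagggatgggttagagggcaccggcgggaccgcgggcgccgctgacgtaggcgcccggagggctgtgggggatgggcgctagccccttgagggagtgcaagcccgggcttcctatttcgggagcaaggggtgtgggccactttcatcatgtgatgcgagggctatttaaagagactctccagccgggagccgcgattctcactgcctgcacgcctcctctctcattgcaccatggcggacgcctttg
Ppara: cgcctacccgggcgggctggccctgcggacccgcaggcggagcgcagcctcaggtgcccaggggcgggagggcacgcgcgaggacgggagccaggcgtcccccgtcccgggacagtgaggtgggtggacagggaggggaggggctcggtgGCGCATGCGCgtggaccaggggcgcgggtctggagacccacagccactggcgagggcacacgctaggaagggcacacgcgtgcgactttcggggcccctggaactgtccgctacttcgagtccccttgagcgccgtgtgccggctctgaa
Atp5po: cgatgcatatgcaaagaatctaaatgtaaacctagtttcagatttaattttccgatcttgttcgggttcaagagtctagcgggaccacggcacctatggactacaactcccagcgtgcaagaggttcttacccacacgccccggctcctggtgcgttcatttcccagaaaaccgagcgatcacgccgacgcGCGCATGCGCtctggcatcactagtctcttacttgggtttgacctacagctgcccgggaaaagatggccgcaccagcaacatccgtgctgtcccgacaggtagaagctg
Atp5mc3: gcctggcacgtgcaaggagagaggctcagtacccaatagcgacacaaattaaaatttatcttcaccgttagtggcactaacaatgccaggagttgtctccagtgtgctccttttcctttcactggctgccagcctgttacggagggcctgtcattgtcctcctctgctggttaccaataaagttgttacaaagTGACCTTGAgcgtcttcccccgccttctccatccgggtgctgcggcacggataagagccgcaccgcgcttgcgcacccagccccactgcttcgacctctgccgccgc
The string starts at base 151 of the Ppara window, at base 192 of the Atp5po window and at base 194 of the Atp5mc3 window. Atp5mc3, a subunit of ATP synthase, averaged 7.60 ± 0.18 log2 units with rosiglitazone and 6.78 ± 0.36 with resveratrol (SD, n = 5 each; adjusted p = 0.0241; passed in 14 of 19 alternatives). Of the other higher genes with the extended half-site, Timm8b (passed in 14 of 19 alternatives) and Sdhd share 1 site, as their windows overlap by 195 bases.

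In the whole tissue, the defining genes of white fat cells did not move together. Of 19 measured genes of white fat cell identity, 4 were higher (21.1%, against 5.63% of all genes) and the median was -0.05. Adipoq read 10.88, 11.06, 10.83, 11.05 and 10.92 log2 units in the 5 rosiglitazone arrays, against 11.06, 11.04, 11.01, 10.98 and 11.05 in the 5 resveratrol arrays, with a difference of -0.08 and a 95% interval of -0.31 to 0.15, which takes in 0. Its means in obese and lean control arrays were 10.97 and 10.96, and the highest value of any feature was 12.47. Whether the array can show differences at such bright levels was not tested, for Adipoq or for other bright genes. Lep, the satiety hormone leptin, averaged 9.29 ± 0.45 log2 units with rosiglitazone and 10.10 ± 0.38 with resveratrol, a difference of -0.81 ± 0.36 that did not pass the test (adjusted p = 0.212, 95% interval -1.56 to -0.06, which carries no adjustment over genes). It passed as lower in 3 alternatives, the fit of the 10 treated arrays alone (adjusted p = 0.0258), array weights (adjusted p = 0.0406) and the SD covariate (difference -1.28, adjusted p = 0.000886), and also without lean control replicate 3 (adjusted p = 0.0149). The lean control mean of Lep was 8.19 (7.67 without array 3). Cfd, the protease adipsin, was higher, with 8.60, 8.58, 8.52, 8.86 and 9.09 log2 units in the 5 rosiglitazone arrays, against 7.80, 7.83, 7.94, 7.42 and 7.58 in the 5 resveratrol arrays. For Cfd the groups did not overlap and the log2 difference was 1.02 ± 0.20 (SE), 2.02-fold higher, with an adjusted p of 0.00182. Its lean control mean, 9.06 (9.29 without array 3), lay nearer to the rosiglitazone mean of 8.73 than to the resveratrol mean of 7.71. Lgals12, a galectin of lipid droplets (log2 difference 1.56 ± 0.33, 2.95-fold), was higher as well, and Cebpb, a transcription factor of early fat cell formation (log2 difference 0.62, adjusted p = 0.0282; passed in 12 of 19 alternatives), and Pnpla2 were the other members that passed. The count of 4 was 2 with the SD covariate and without any 1 of rosiglitazone replicates 1 and 3 and resveratrol replicates 3 and 5. With the SD covariate 2 members were lower.

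Among 36 genes of hormones and factors secreted by fat, 3 were higher (8.33%, against 5.63% of all genes) and 5 lower (13.9%, against 1.92%). Beside Cfd, Angptl8, an inhibitor of lipoprotein lipase, was higher (log2 difference 1.65 ± 0.39, 3.14-fold), with arrays that overlapped between the groups, and Fgf21, a metabolic hormone known from liver, was called higher at a low level (3.31 log2 units with rosiglitazone and 2.56 with resveratrol; log2 difference 0.74, adjusted p = 0.0317; passed in 12 of 18 alternatives). Lower were C1qtnf9 and its relative C1qtnf6 (log2 difference -0.74 ± 0.15, 1.67-fold), Serpina12, which encodes vaspin (log2 difference -1.01 ± 0.22, about 2.02-fold), Bmp3 (log2 difference -1.24 ± 0.21, about 2.36-fold) and C1qtnf2, outside the rule for naming (log2 difference -0.70, 1.62-fold; passed in 11 of 19 alternatives).

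Genes of brown and beige fat cells were counted because PPAR-gamma ligands are known to induce them in white fat. Of 18 measured, 6 were higher (33.3%, against 5.63% of all genes) and 1 was lower (5.56%, against 1.92%), with a median of 0.10. Ucp1, the uncoupling protein that defines brown fat, read 2.94, 2.55, 2.63, 2.29 and 1.73 log2 units in the 5 rosiglitazone arrays, against 1.53, 1.21, 1.48, 1.35 and 1.35 in the 5 resveratrol arrays. For Ucp1 the groups did not overlap and the log2 difference was 1.05 ± 0.19 (SE), about 2.06-fold higher, with an adjusted p of 0.000518. Both means were near background, so the level of Ucp1 transcript was low with rosiglitazone as well. The brightest member that was higher was Cidea, at 10.35 with rosiglitazone and 8.89 with resveratrol, followed by the creatine transporter Slc6a8 (log2 difference 0.72 ± 0.19, 1.65-fold, adjusted p = 0.0185; passed in 15 of 19 alternatives). Ebf2, a transcription factor of brown fat precursors that marks other precursors too, was lower (log2 difference -0.70 ± 0.17, 1.62-fold). The count of 6 was 3 without rosiglitazone replicate 2 and among genes above background alone.

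In glucose metabolism, 3 of 22 genes of insulin action were higher (13.6%), 4 of 12 of glycolysis (33.3%), 5 of 14 of the pentose phosphate path and NADPH supply (35.7%) and 2 of 7 of glycogen (28.6%). Over all genes 5.63% were higher, and in the fit limited to genes above background 846 of 7010. Slc2a4, the insulin-sensitive glucose transporter of fat and muscle, averaged 4.28 ± 0.52 log2 units with rosiglitazone and 3.67 ± 0.29 with resveratrol, a difference of 0.61 ± 0.22 that did not pass (adjusted p = 0.0972). It passed with array weights (adjusted p = 0.0352) and without rosiglitazone replicate 5 (difference 0.78, adjusted p = 0.0212). The insulin receptor Insr (log2 difference 0.67 ± 0.17, 1.59-fold, adjusted p = 0.0144; passed in 17 of 19 alternatives) and the substrate Irs3 (log2 difference 0.72 ± 0.21, 1.65-fold, adjusted p = 0.0315; passed in 11 of 19 alternatives) were higher, and the third was Trib3, near background (passed in 12 of 18 alternatives). This count was 6 with array weights, 5 without lean control replicate 3, 0 without resveratrol replicate 3 or 5 and 1 without resveratrol replicate 2. In glycolysis Ldhb, a lactate dehydrogenase subunit (log2 difference 1.25 ± 0.20, 2.38-fold), Hk2 (log2 difference 0.81, adjusted p = 0.0174; passed in 15 of 19 alternatives), Pgk1 (log2 difference 0.74, adjusted p = 0.0191; passed in 16 of 19 alternatives) and Pfkfb1 (log2 difference 0.83, adjusted p = 0.0302; passed in 11 of 19 alternatives) were higher. The count was 2 with quantile normalization or without resveratrol replicate 3, and 1 without rosiglitazone replicate 4 or resveratrol replicate 5. The 5 higher members of the NADPH list included Me1, the transketolase Tkt (log2 difference 1.22 ± 0.25, 2.33-fold), Shmt2 (log2 difference 0.75 ± 0.16, 1.68-fold) and H6pd (log2 difference 0.67, adjusted p = 0.0209; passed in 14 of 19 alternatives), and the count was 3 without rosiglitazone replicate 3 or 4 or resveratrol replicate 3 or 4. Glycogen synthase Gys1 (log2 difference 0.93 ± 0.18, 1.91-fold) and the phosphorylase Pygl (log2 difference 0.99 ± 0.21, 1.99-fold) were both higher.

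Genes of energy sensing were counted because resveratrol is studied for them. Of 21 measured genes of sirtuins, AMP-activated kinase and energy sensing, 1 was higher (4.76%), against 5.63% of all genes. The differences still leaned to one side, with 19 of 21 positive and a median of 0.28. That median was 0.16 with quantile normalization and 0.17 with the SD covariate. Genes above background in both groups had a median of 0.14. In limma 5 members were higher and 0 lower at an unadjusted p under 0.05. Of the 21, 19 had a mean above background in 1 or both groups. In the fit limited to genes above background, 846 of 7010 genes were higher. The list count of 1 was 3 with array weights or without lean control replicate 3. It was 2 in the fit of the 10 treated arrays, among genes above background or without rosiglitazone replicate 5. The gene was Nmnat1, which makes NAD in the nucleus, with 7.12, 7.18, 6.59, 6.71 and 6.56 log2 units in the 5 rosiglitazone arrays, against 5.85, 6.30, 5.76, 5.88 and 5.94 in the 5 resveratrol arrays. For Nmnat1 the groups did not overlap and the log2 difference was 0.88 ± 0.20 (SE), 1.85-fold higher, with an adjusted p of 0.00635. The catalytic subunits Prkaa1 and Prkaa2 had 95% intervals of -0.20 to 0.43 and -0.08 to 0.94 on the log2 scale, and Sirt3 was near background in both groups. The direction of Prkaa1 depended on the scaling (0.11 as deposited, -0.10 with quantile normalization). Among 21 nuclear receptors and partners, Ppara and the coactivator Ncoa1 (log2 difference 0.61 ± 0.14, 1.53-fold; passed in 18 of 19 alternatives) were higher, and Vdr (higher; passed in 17 of 18 alternatives) and Nr5a2 (lower; passed in 6 of 18 alternatives) were called at levels near background. With array weights 5 were higher.

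Proteasome subunits, which break down tagged proteins, were higher in 14 of 29 cases (median 0.61), all below 2-fold. Psmb7 (log2 difference 0.82 ± 0.19, 1.76-fold), Psma6 (log2 difference 0.75 ± 0.16, 1.68-fold), Psmd11 (log2 difference 0.69 ± 0.15, 1.61-fold) and Psma5 (log2 difference 0.67 ± 0.15, 1.59-fold) had the smallest p-values. The count was 8 with quantile normalization, 9 without resveratrol replicate 3 and 8 without resveratrol replicate 5. Of 34 antioxidant and glutathione genes, 7 were higher (median 0.39), led by the mitochondrial superoxide dismutase Sod2, which read 8.21, 7.93, 8.01, 7.62 and 7.80 log2 units in the 5 rosiglitazone arrays, against 7.28, 6.80, 6.43, 6.54 and 6.28 in the 5 resveratrol arrays. For Sod2 the groups did not overlap and the log2 difference was 1.25 ± 0.19 (SE), 2.38-fold higher, with an adjusted p of 8.85e-05. Prdx3, a mitochondrial peroxidase (log2 difference 1.09 ± 0.18, 2.13-fold), the glutathione synthetase Gss (log2 difference 1.01 ± 0.18, 2.01-fold) and Glrx5 (log2 difference 0.84 ± 0.16, 1.79-fold) followed. That count was 13 in the fit of the 10 treated arrays alone, 11 among genes above background, 14 without lean control replicate 3 and 16 with array weights. Nfe2l2, the regulator of antioxidant genes that resveratrol is also studied for, did not pass (log2 difference 0.25 ± 0.19, adjusted p = 0.537).

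Among retinol, aldehyde and carbonyl enzymes, 5 of 35 were higher (14.3%, against 5.63% of all genes) and 1 lower (2.86%, against 1.92%). Beside Rdh12 and Cbr1 these included Dhrs4 (log2 difference 0.72 ± 0.16, 1.65-fold) and Cbr4 (log2 difference 0.92 ± 0.23, 1.89-fold), while the retinal reductase Dhrs3 was lower (log2 difference -0.87 ± 0.22, 1.82-fold). Cytochrome P450 genes held 2 higher (7.14%) and 1 lower (3.57%) of 28: Cyp4b1 and the reductase Por (log2 difference 0.68, adjusted p = 0.0309; passed in 9 of 19 alternatives) were higher and Cyp39a1 (log2 difference -0.59, adjusted p = 0.024; passed in 15 of 19 alternatives) was lower. Cyp4b1 read 9.06, 8.40, 9.34, 9.16 and 9.69 log2 units in the 5 rosiglitazone arrays, against 6.97, 7.04, 6.61, 6.64 and 6.68 in the 5 resveratrol arrays. For Cyp4b1 the groups did not overlap and the log2 difference was 2.34 ± 0.27 (SE), 5.08-fold higher, with an adjusted p of 2.63e-06. Group means of Cyp4b1 were 9.13 with rosiglitazone, 6.79 with resveratrol, 6.22 in obese and 5.43 (5.09 without array 3) in lean control arrays. Of 13 genes listed for kynurenine and tryptophan breakdown, 2 were higher, Aadat and Gpt (log2 difference 0.76, adjusted p = 0.0334; passed in 11 of 19 alternatives). Gpt encodes an alanine aminotransferase, which is not an enzyme of that path, so only Aadat was called within the path itself. The list count of 2 was 4 in the fit of the 10 treated arrays or without rosiglitazone replicate 5. It was 1 with quantile normalization, with the SD covariate or without any 1 of rosiglitazone replicates 1, 2 and 4 and resveratrol replicates 4 and 5. Of 30 amino acid transporters, 4 were higher (13.3%), among them the glutamate transporter Slc1a3 (log2 difference 1.57 ± 0.24, 2.98-fold), the proton-coupled Slc36a2 (log2 difference 1.91 ± 0.35, about 3.75-fold) and Slc7a5 (log2 difference 0.93 ± 0.22, about 1.91-fold). For Slc1a3 and Slc36a2 the lean control means, 6.06 (6.32 without array 3) and 4.46 (4.78 without array 3), were near the rosiglitazone means of 5.73 and 4.91, while the resveratrol means were 4.16 and 3.0.

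**Figure D4:**
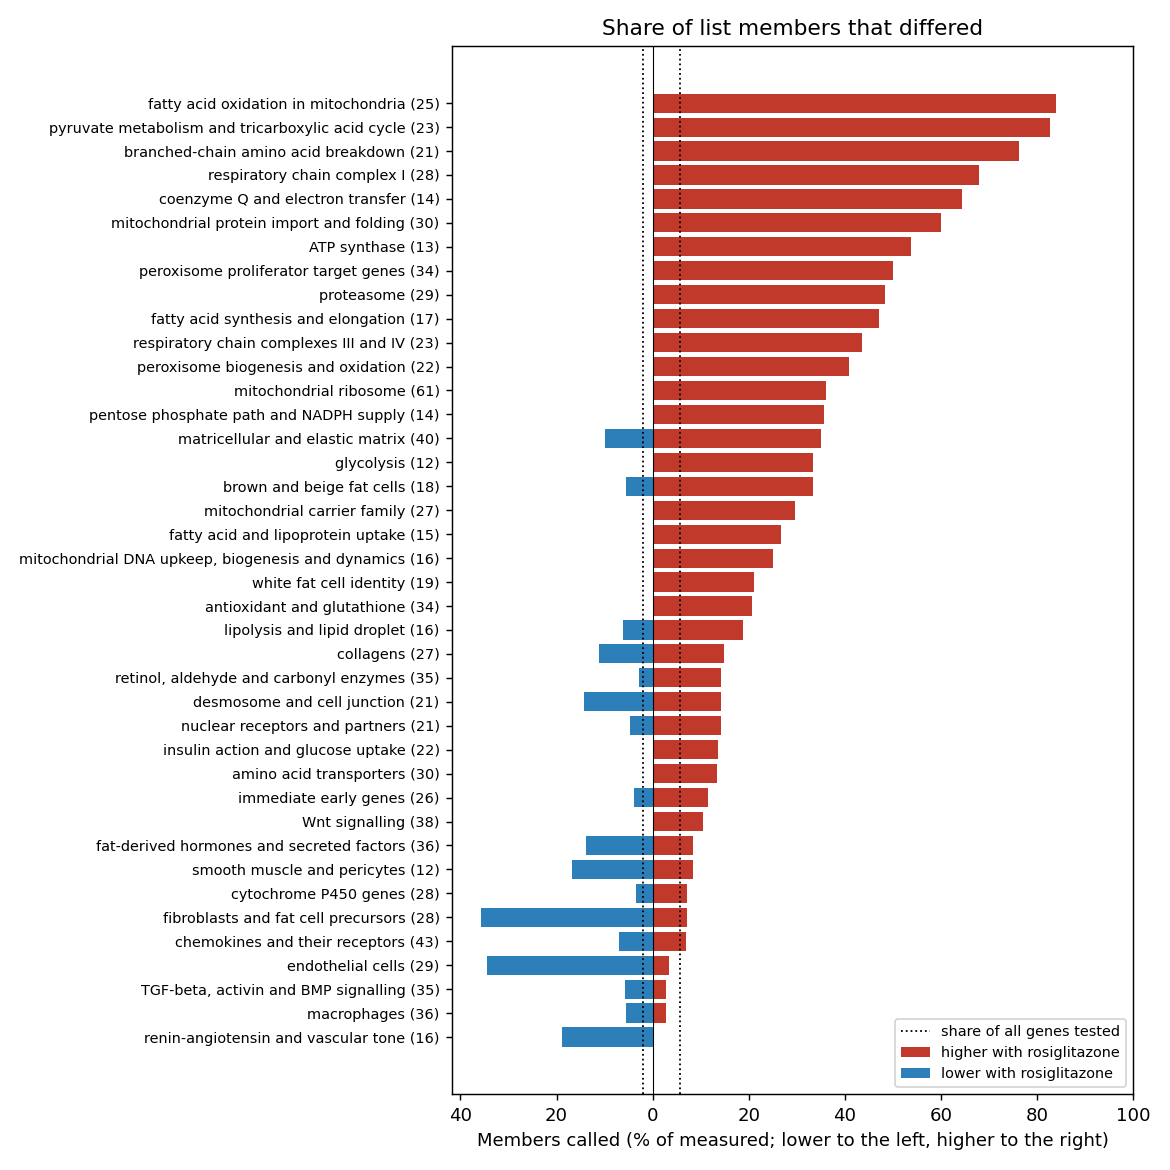
Percent of the measured members of each gene list (rows, number measured in brackets) that were higher with rosiglitazone (red, right of 0) or lower (blue, left of 0), for lists with at least 10 measured members and 3 calls. Dotted lines mark the shares over all genes, 5.63% higher and 1.92% lower. Among 7010 genes above background the shares were larger, with 846 higher and 282 lower. Metabolic lists lie at the top while endothelial and fibroblast lists have the longest bars on the lower side.

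Endothelial cells line vessels. Of 29 measured markers, 10 were lower and 1 was higher (median -0.41), and the mean of the list per array ran from 4.52 to 4.77 log2 units with rosiglitazone, below all resveratrol arrays at 4.94 to 5.40. Cdh5, the cadherin of endothelial junctions, read 7.41, 7.34, 7.43, 7.34 and 7.25 log2 units in the 5 rosiglitazone arrays, against 8.50, 8.48, 8.28, 8.68 and 8.39 in the 5 resveratrol arrays. For Cdh5 the groups did not overlap and the log2 difference was -1.11 ± 0.16 (SE), 2.16-fold lower, with an adjusted p of 4.76e-05. Cldn5, a claudin of tight junctions, read 2.80, 2.30, 2.58, 2.93 and 2.5 log2 units in the 5 rosiglitazone arrays, against 5.15, 5.34, 5.38, 4.86 and 4.10 in the 5 resveratrol arrays. For Cldn5 the groups did not overlap and the log2 difference was -2.35 ± 0.24 (SE), about 5.09-fold lower, with an adjusted p of 3.42e-07. Its rosiglitazone mean was near background. The surface proteins Emcn (log2 difference -1.01 ± 0.16, 2.01-fold) and Cd93 (log2 difference -1.07 ± 0.19, 2.1-fold) were lower too. Vwf, von Willebrand factor, went against the rest and read 5.11, 5.04, 5.54, 5.31 and 5.47 log2 units in the 5 rosiglitazone arrays, against 4.62, 4.46, 4.07, 4.0 and 4.17 in the 5 resveratrol arrays. For Vwf the groups did not overlap and the log2 difference was 1.03 ± 0.20 (SE), 2.04-fold higher, with an adjusted p of 0.00138. The obese means were 8.73 for Cdh5, 4.96 for Cldn5 and 7.06 for Emcn, near the resveratrol means of 8.47, 4.97 and 6.75.

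Among genes of the renin-angiotensin system and vascular tone, 3 of 16 were lower: Ace, the guanylate cyclase subunit Gucy1a1 (log2 difference -0.89 ± 0.17, 1.85-fold) and the natriuretic peptide receptor Npr1 (log2 difference -0.71, adjusted p = 0.019; passed in 16 of 19 alternatives). Of 12 genes of smooth muscle and pericytes, the pericyte genes Kcnj8 (log2 difference -0.87 ± 0.19, 1.83-fold) and Notch3 (log2 difference -0.80 ± 0.21, 1.74-fold) were lower and Tagln, an actin-binding protein of contractile cells, was higher (log2 difference 1.25 ± 0.29, 2.38-fold). Of 15 vessel growth factors, 1 was higher, Pdgfd (log2 difference 0.85, adjusted p = 0.0334; passed in 11 of 19 alternatives). With the SD covariate 5 of the 16 genes of vascular tone were lower. Beside these counts, 5.63% of all genes were higher and 1.92% lower in the reported model.

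Fibroblasts and fat cell precursors keep up the connective tissue of fat. Of 28 measured markers, 10 were lower and 2 higher (median -0.42), and the mean of the list per array ran from 5.25 to 5.84 log2 units with rosiglitazone and from 5.83 to 6.06 with resveratrol. Col14a1, a collagen on the surface of fibrils, read 3.16, 5.11, 3.91, 4.31 and 5.23 log2 units in the 5 rosiglitazone arrays, against 7.36, 7.51, 7.10, 7.15 and 7.60 in the 5 resveratrol arrays. For Col14a1 the groups did not overlap and the log2 difference was -3.0 ± 0.33 (SE), 8-fold lower, with an adjusted p of 1.56e-06. Lum, the proteoglycan lumican, read 4.75, 4.53, 4.40, 5.01 and 5.88 log2 units in the 5 rosiglitazone arrays, against 6.84, 7.24, 7.15, 6.62 and 7.83 in the 5 resveratrol arrays. For Lum the groups did not overlap and the log2 difference was -2.22 ± 0.33 (SE), 4.66-fold lower, with an adjusted p of 7.13e-05. Cd34, a surface protein of precursors and vessels (log2 difference -1.74 ± 0.20, 3.35-fold), and Cd248 (log2 difference -1.35 ± 0.23, 2.55-fold) were lower as well. Rosiglitazone arrays varied more than resveratrol arrays for Col14a1, with an SD of 0.86 with rosiglitazone and 0.22 with resveratrol. The 2 markers that were higher, Ccn5 and Sema3c (log2 difference 0.71 ± 0.19, 1.63-fold; passed in 18 of 19 alternatives), encode secreted proteins. With array weights 4 were higher and without resveratrol replicate 1 there was 1. Ccn5 read 5.95, 5.98, 6.65, 6.78 and 7.36 log2 units in the 5 rosiglitazone arrays, against 4.46, 3.68, 3.86, 3.84 and 4.44 in the 5 resveratrol arrays. For Ccn5 the groups did not overlap and the log2 difference was 2.49 ± 0.24 (SE), 5.6-fold higher, with an adjusted p of 1.42e-07.

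Matricellular and elastic matrix genes moved in both directions. Of 40 measured, 14 were higher and 4 lower (median 0.33). Cilp, a cartilage matrix protein that binds TGF-beta, read 6.73, 7.47, 7.75, 8.29 and 8.12 log2 units in the 5 rosiglitazone arrays, against 3.83, 5.53, 5.24, 4.46 and 5.11 in the 5 resveratrol arrays. For Cilp the groups did not overlap and the log2 difference was 2.84 ± 0.32 (SE), 7.15-fold higher, with an adjusted p of 1.56e-06. Ltbp2, a microfibril protein (log2 difference 2.34 ± 0.27, about 5.07-fold), Ccn2, connective tissue growth factor (log2 difference 1.84 ± 0.23, 3.59-fold), and Ccn1 (log2 difference 1.40 ± 0.33, 2.64-fold) were higher. Lower were Efemp1, a fibulin (log2 difference -1.74 ± 0.22, 3.33-fold), Sparcl1 (log2 difference -1.37 ± 0.16, 2.59-fold), the protease inhibitor Timp4 (log2 difference -1.31 ± 0.16, 2.48-fold) and the laminin chain Lama2 (log2 difference -0.85 ± 0.22, 1.8-fold). The proteoglycan Prg4, lubricant of joints, was in no list and was higher, with 6.97, 6.73, 7.19, 6.25 and 7.71 log2 units in the 5 rosiglitazone arrays, against 4.94, 4.26, 4.23, 4.37 and 4.30 in the 5 resveratrol arrays. For Prg4 the groups did not overlap and the log2 difference was 2.55 ± 0.23 (SE), 5.85-fold higher, with an adjusted p of 7.39e-08. Of 27 collagens 4 were higher (14.8%, against 5.63% of all genes) and 3 lower (11.1%, against 1.92%). Their median was 0.12, and 0.02 with quantile normalization. The higher count was 2 among genes above background or without any 1 of rosiglitazone replicates 1 and 4 and resveratrol replicate 4. Col8a1, a short-chain collagen of vessel walls, read 5.17, 6.01, 6.42, 6.35 and 6.41 log2 units in the 5 rosiglitazone arrays, against 3.52, 3.61, 2.75, 3.28 and 4.21 in the 5 resveratrol arrays. For Col8a1 the groups did not overlap and the log2 difference was 2.60 ± 0.25 (SE), 6.05-fold higher, with an adjusted p of 1.23e-07. Col5a3 was higher by less (log2 difference 0.86 ± 0.20, 1.82-fold), and the basement membrane collagen Col4a3 (log2 difference -0.55 ± 0.14, 1.47-fold) and the microfibrillar collagen Col6a6 (log2 difference -0.80 ± 0.16, about 1.74-fold) were lower. Among 26 metalloproteinases, Mmp2, which cuts basement membrane collagen, was lower (log2 difference -1.20 ± 0.23, 2.3-fold), and Adamts8 was called higher at levels near background. With quantile normalization or the SD covariate 3 metalloproteinases were lower, and 2 without rosiglitazone replicate 5 or resveratrol replicate 4. In the TGF-beta family, Tgfb3 was higher (log2 difference 1.16 ± 0.25, 2.23-fold) and the BMP antagonist Chrdl1 (log2 difference -1.28 ± 0.19, 2.42-fold) and Bmp3 were lower, of 35 measured, with 5 lower under quantile normalization or the SD covariate.

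Of 36 measured macrophage markers, 2 were lower (5.56%, against 1.92% of all genes), 1 was higher (2.78%, against 5.63%) and the median was -0.35. At an unadjusted p under 0.05, 11 were lower and 1 was higher, and 9 of the 36 differences were positive. The counts depended on which arrays were used. The mean of the list in rosiglitazone array 5 was 6.25 log2 units, above all resveratrol arrays (5.63 to 6.09), whereas the other rosiglitazone arrays ran from 5.01 to 5.58. Without rosiglitazone replicate 5, 12 markers were lower, and without lean control replicate 3 there were 7. With quantile normalization 10 were lower and with the SD covariate 14. Adgre1, a surface receptor of mature macrophages, averaged 4.12 ± 0.46 log2 units with rosiglitazone and 4.66 ± 0.18 with resveratrol and did not pass (adjusted p = 0.118), but passed without rosiglitazone replicate 5 (adjusted p = 0.0121), with quantile normalization (adjusted p = 0.0143) and with the SD covariate (adjusted p = 0.00245). F13a1, coagulation factor XIII of resident macrophages (log2 difference -1.21 ± 0.30, 2.31-fold), and Cd5l, a scavenger protein (log2 difference -1.49 ± 0.34, about 2.81-fold), were lower, and the fractalkine receptor Cx3cr1 was higher (log2 difference 1.0 ± 0.24, about 2-fold), with a resveratrol mean near background.

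**Figure D5:**
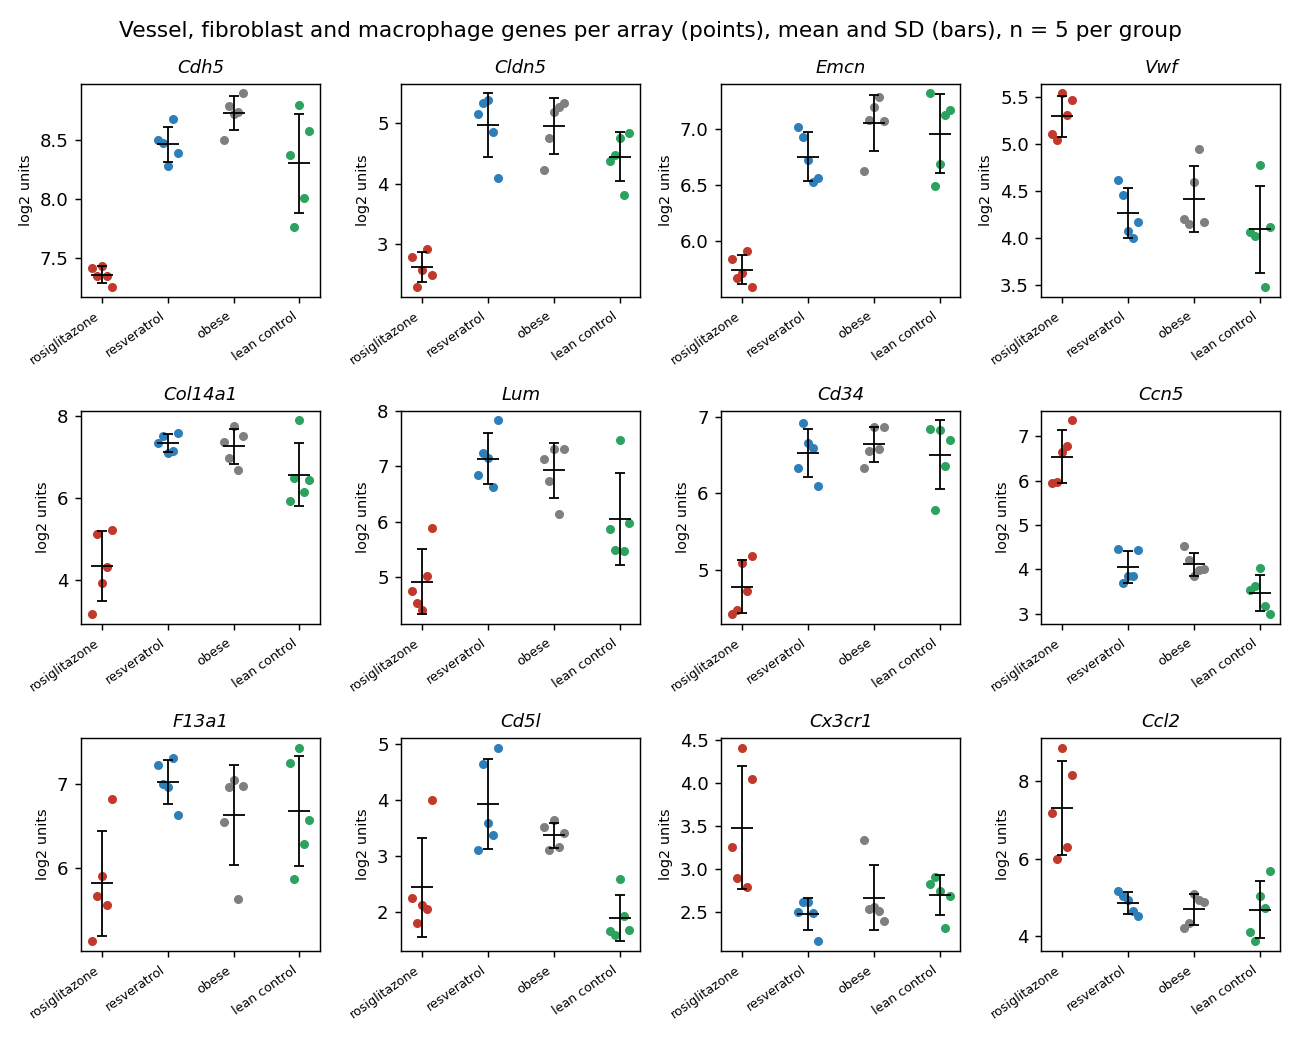
Levels of 12 genes of vessels (top row), fibroblasts (middle row) and macrophages with the chemokine Ccl2, which is not in the macrophage list (bottom row), in log2 units (vertical axis, a scale of its own in each panel) by group, 1 point per array with the mean and SD, n = 5 per group. Cdh5, Cldn5, Emcn, Col14a1, Lum and Cd34 are lower with rosiglitazone than in the other 3 groups, Vwf, Ccn5 and Ccl2 are higher, and rosiglitazone array 5 is the highest of its group for F13a1 and Cd5l.

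Single chemokine genes were higher or lower, with a list median of -0.03. Ccl2, which attracts monocytes, read 7.17, 5.98, 8.87, 6.31 and 8.15 log2 units in the 5 rosiglitazone arrays, against 5.17, 5.04, 4.92, 4.63 and 4.51 in the 5 resveratrol arrays. For Ccl2 the groups did not overlap and the log2 difference was 2.44 ± 0.39 (SE), 5.43-fold higher, with an adjusted p of 0.000188. Rosiglitazone arrays ranged more widely than resveratrol arrays. Ccl7, another chemokine for monocytes, was higher (log2 difference 1.89 ± 0.39, about 3.71-fold), and Ccl12 was called at levels near background. Ccl6 read 7.51, 6.84, 7.70, 7.35 and 8.84 log2 units in the 5 rosiglitazone arrays, against 8.99, 9.34, 9.11, 8.85 and 9.89 in the 5 resveratrol arrays. For Ccl6 the groups did not overlap and the log2 difference was -1.59 ± 0.28 (SE), 3.01-fold lower, with an adjusted p of 0.000451. The scavenging receptor Ackr2 (log2 difference -0.91 ± 0.16, 1.88-fold) and Ccl24 (log2 difference -0.97, adjusted p = 0.0247; passed in 14 of 19 alternatives) were also lower. Of 43 chemokine genes 3 were higher (6.98%, against 5.63% of all genes) and 3 lower (6.98%, against 1.92%). The higher count was 1 among genes above background. The lower count was 7 under quantile normalization or without rosiglitazone replicate 5, 6 without lean control replicate 3 and 5 without resveratrol replicate 1. Il33, a cytokine of stromal cells that sustains regulatory T cells of fat, was lower and read 4.97, 4.85, 5.07, 5.06 and 5.60 log2 units in the 5 rosiglitazone arrays, against 6.91, 6.30, 6.53, 6.21 and 6.12 in the 5 resveratrol arrays. For Il33 the groups did not overlap and the log2 difference was -1.30 ± 0.18 (SE), 2.47-fold lower, with an adjusted p of 2.32e-05.

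In lists of other immune cells the calls were on the lower side, but most members were near background. A mean above background in 1 or both groups was found for 3 of 27 genes of T and natural killer cells and 1 of 10 of B cells. The same held for 5 of 10 of mast cells, 1 of 17 of neutrophils and 12 of 17 of class II presentation. Members near background say little in either direction. Of 17 genes of dendritic cells and class II presentation, the invariant chain Cd74 (log2 difference -0.87 ± 0.20, 1.82-fold) and RT1-Da (log2 difference -0.89, adjusted p = 0.0281; passed in 13 of 19 alternatives) were lower. With the SD covariate 4 were lower, and 1 without any 1 of rosiglitazone replicates 2, 3 and 4 and resveratrol replicates 2, 3 and 5. Over the lists of T and natural killer cells, B cells, mast cells, neutrophils and class II presentation, 5 of 81 distinct genes were lower (6.17%, against 1.92% of all genes), among them Siglec5 (log2 difference -1.02 ± 0.23, 2.02-fold), Cd4 (log2 difference -1.20, adjusted p = 0.0372; passed in 10 of 19 alternatives), which macrophages of the rat express as well, and Gata2 (log2 difference -0.57, adjusted p = 0.0452; passed in 10 of 19 alternatives). In limma 0 of the 81 were higher, also at an unadjusted p under 0.05. Of 14 complement genes Cfd was higher and Cfp, properdin, lower (log2 difference -1.32 ± 0.33, 2.5-fold).

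Of 21 genes of desmosomes and other cell junctions, 3 were higher (14.3%, against 5.63% of all genes) and 3 lower (14.3%, against 1.92%). Beside Dsp, Pkp2, a plakophilin of the same desmosomal plaque, was higher with a resveratrol mean near background (log2 difference 1.38 ± 0.17, about 2.6-fold), and so was the gap junction gene Gja1 (log2 difference 1.07 ± 0.23, 2.09-fold). The tight junction genes Cldn5, Cldn1 (log2 difference -0.79 ± 0.17, about 1.73-fold) and Tjp1 (log2 difference -0.54 ± 0.14, 1.46-fold) were lower, and 5 junction genes were lower under quantile normalization or the SD covariate. Immediate early genes had 3 higher and 1 lower of 26, with Ier3 (log2 difference 1.02 ± 0.18, 2.02-fold) and the lower Spry2, a feedback inhibitor of growth factor signals (log2 difference -0.59, adjusted p = 0.0212; passed in 16 of 19 alternatives). The count of 3 was 7 with array weights, 6 without rosiglitazone replicate 4 and 5 among genes above background or without resveratrol replicate 2. Of 31 cell division genes, 1 was lower, the ribonucleotide reductase subunit Rrm2 (log2 difference -1.28, adjusted p = 0.0187; passed in 15 of 19 alternatives). In limma 0 of 84 distinct genes passed in the 5 lists without a call, which were B cells, epididymal genes, red blood cells and platelets, the interferon response and the cytosolic ribosome, and 4 were higher and 4 lower at an unadjusted p under 0.05.

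Wnt signalling had 4 of 38 members higher: Wnt4 (log2 difference 0.68 ± 0.16, about 1.6-fold), Axin2 (log2 difference 0.65, adjusted p = 0.0359; passed in 9 of 19 alternatives), the feedback inhibitor of the pathway, and the receptors Fzd1 (passed in 11 of 18 alternatives) and Fzd2 (passed in 8 of 18 alternatives), both with a resveratrol mean near background. The share of 10.5% compares with 5.63% of all genes and with 846 of 7010 in the fit limited to genes above background. The median of the Wnt list was 0.01. For the other counts of this paragraph the shares of all genes were likewise 5.63% higher and 1.92% lower. The Wnt count depended on the scaling, with 2 higher and 2 lower under quantile normalization and 1 higher and 1 lower with the SD covariate. The higher count of the Wnt list was 2 without any 1 of rosiglitazone replicates 1 and 5 and resveratrol replicate 2. It was 1 without any 1 of rosiglitazone replicates 3 and 4 and resveratrol replicates 1, 3 and 5. The endoplasmic reticulum stress list had 2 of 24 higher, Ddit3 (log2 difference 0.64, adjusted p = 0.016; passed in 15 of 19 alternatives) and Trib3, the clock list 1 of 11, Bhlhe40 (log2 difference 1.23, adjusted p = 0.0315; passed in 9 of 19 alternatives), and the mesothelial list 1 of 14, Krt7 (log2 difference 0.88, adjusted p = 0.0282; passed in 11 of 18 alternatives). Lysosomal genes had 1 of 20 lower, Ctsh (log2 difference -0.67, adjusted p = 0.0257; passed in 15 of 19 alternatives), with 5 lower under quantile normalization and 6 with the SD covariate. In the list of nerve and Schwann cells 2 of 10 were lower, Nnat and S100b (log2 difference -0.83, adjusted p = 0.0217; passed in 17 of 19 alternatives). Only 2 of the 10 had a mean above background in either treated group, so the list says little about these cells. Muscle genes had 1 higher near background, Tnnt2 (passed in 14 of 18 alternatives), and 1 lower, Tnnt3 (log2 difference -0.88 ± 0.16, 1.85-fold), of 15. Cytokines and acute phase genes had 1 higher near background, Ptx3 (passed in 13 of 18 alternatives), and 1 lower, Il33, of 25. Counts of 1 or 2 members whose alternatives are not given here moved by at most 2 members in the 19 alternatives.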

How the data were processed

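Total RNA (100 ng per sample, per the labels' protocols) was measured on Affymetrix Rat Gene 2.1 ST arrays, 1 array per sample. The authors deposited log2 signal values made with RMA, which corrects background, quantile-normalizes and summarizes probes, per the submitters' processing notes; its version is not given in the sources used here. No normalization or offset was added. Of 36685 features, 14824 probe sets had 1 symbol, 829 several and 21032 none in the array annotation held with the series. Where a gene had several probe sets (234 genes), the brightest was used, giving 14557 genes. Of the probe sets with 1 symbol, 14670 matched RefSeq by gene ID and no symbol changed.

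Differences, rosiglitazone minus resveratrol, were tested by moderated linear models (limma 3.58.1, R 4.3.3) that fitted each of the 4 groups a mean on all 20 arrays, and p-values were adjusted by Benjamini-Hochberg over the 14557 genes with a threshold of 0.05. Precision is limited by the 5 arrays a group, and the median SE of a log2 difference was 0.17. No slide or scan batch is given in the sources used here. The code was tested on simulated data. Gene lists (67 lists, 1852 distinct genes, 1360 measured) are described by counts and medians, with no set test. Genes named were the 12 highest and 12 lowest differences among called genes whose arrays did not overlap and whose higher mean was above background, up to 4 called members per direction in each list, members moving against their list, and a short fixed set; others are said to be named after their values were seen. The members, lists and rules were chosen with earlier results of these data known. Plots were drawn with matplotlib 3.10.9.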

Additional observations from a re-analysis of the deposited data

Results flagged for a closer look

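Within each group of 5 arrays, the highest or the lowest array of a gene was looked at where its gap to the next array took up most of the range of the group, by Dixon's test at the 95% level. The 210 genes named in the text were looked at in the treated groups, and 14 genes with obese or lean control means in the text also in those groups. Of these 448 groups, 31 had such an array, and chance gives about 1 in 20. Rosiglitazone array 1 had 8.33 for Atp5f1d (others 8.14 to 8.18) and 1.49 for Nr5a2 (others 1.73 to 1.81) in log2 units. Rosiglitazone array 2 had 8.49 for Lep (others 9.39 to 9.57) in log2 units. Rosiglitazone array 3 had 7.88 for Fabp3 (others 8.64 to 8.91), 6.10 for Slc1a3 (others 5.59 to 5.69) and 5.73 for Vldlr (others 6.23 to 6.42) in log2 units. Rosiglitazone array 4 had 4.68 for Gucy1a1 (others 4.0 to 4.09) and 7.28 for Pgk1 (others 6.91 to 7.01) in log2 units. Rosiglitazone array 5 had 4.91 for Adgre1 (others 3.72 to 4.05), 3.99 for Cd5l (others 1.79 to 2.24) and 7.50 for Mmp2 (others 6.19 to 6.45) in log2 units. Resveratrol array 1 had 5.38 for Aacs (others 4.21 to 4.45), 2.69 for Cldn1 (others 3.29 to 3.51) and 4.94 for Prg4 (others 4.23 to 4.37) in log2 units. Resveratrol array 2 had 5.04 for Coq10b (others 4.48 to 4.59), 7.58 for Etfdh (others 6.95 to 7.10), 7.90 for Hadh (others 7.22 to 7.34), 4.78 for Mrpl35 (others 4.31 to 4.38), 7.23 for Nfe2l2 (others 6.61 to 6.79), 6.74 for Por (others 5.84 to 5.98), 6.45 for Prdx3 (others 6.02 to 6.15) and 6.94 for Tkt (others 6.15 to 6.29) in log2 units. Resveratrol array 4 had 2.28 for Pam16 (others 2.92 to 3.18) in log2 units. Resveratrol array 5 had 5.70 for Acss2 (others 6.12 to 6.26), 8.09 for Atp5f1b (others 8.61 to 8.78), 2.16 for Cx3cr1 (others 2.49 to 2.61), 5.21 for Kcnj8 (others 4.97 to 5.04), 4.55 for Notch3 (others 5.25 to 5.48) and 7.87 for Tjp1 (others 8.12 to 8.21) in log2 units. Obese array 5 had 10.12 for Lep (others 9.65 to 9.76) in log2 units. Lean control array 3 had 10.27 for Lep (others 7.24 to 8.10) in log2 units. Rosiglitazone array 5, with the separate values of Adgre1, Cd5l and Mmp2, is also the array with the highest mean of the macrophage list in its group, 6.25 log2 units, and 12 macrophage markers were lower without it, against 2 with it. Lean control array 3 was also the lean control array nearest to the obese mean, and leaving it out gave 1384 genes that differed. Leaving out resveratrol array 2, which had 8 of the separate values, raised the number of genes that differed to 1178, and leaving out resveratrol array 5 gave 795. What sets these arrays apart was not tested.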

How the results depend on the processing

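The comparison was repeated under 19 alternatives: 9 of processing and 10 that left out 1 array each. The number of genes that differed was 1100 as reported, between 1062 (intensity trend with robust moderation) and 1630 (array weights) over the processing alternatives, and between 795 (without resveratrol replicate 5) and 1178 (without resveratrol replicate 2) with 1 array left out. Of these genes, 620 (444 higher, 176 lower) passed in the same direction in all 18 alternatives that tested every gene. With array weights 1236 genes were higher. The fit of the 10 treated arrays alone, with the spread of those arrays only, called 1342 genes. With quantile normalization 506 were lower, and with the SD covariate 516, where the reported model gave 280. The array SD of signal ran from 1.86 to 1.949 with rosiglitazone and from 1.806 to 1.925 with resveratrol, and its part in the split was not tested. Many list medians were lower with quantile normalization. It gave 0.98 for fatty acid oxidation, 0.31 for complexes III and IV and 0.37 for the proteasome. The reported medians of these lists were 1.19, 0.54 and 0.61. Of 196 genes that passed and that the naming rule picked, 140 passed in all 19 alternatives, 10 passed in the 18 that tested them, and 46 did not pass in 1 or more. Signs turned only for genes that had not passed. Plin1 had -0.10 with the SD covariate, -0.01 without rosiglitazone replicate 4 and -0.03 without resveratrol replicate 5, and its range with 1 array left out was -0.03 to 0.10. Prkaa1 had -0.10 with quantile normalization and -0.01 with the SD covariate. In an alternative chosen after seeing the data, without lean control replicate 3, 1384 genes differed (1026 higher, 358 lower), including all 1100 of the reported calls, and the 196 named genes that had passed did so again. Lep, with an adjusted p of 0.212 as reported, had 0.0149 there. The replicate numbers did not pair the arrays: same-numbered rosiglitazone and resveratrol arrays had correlations of their deviations from the group means between -0.0811 and 0.108 over genes. With the replicate number as a block, 1099 genes differed, 1038 of them the same calls. Of the 1100 genes, 215 had a lower mean near background, where the background signal limits the fold, and 76 were near background in both groups.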

Other observations

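Features that the array annotation pairs with no symbol were tested in a fit over all 36685 features. Of 21032 such features, 377 (1.79%) differed, 250 higher and 127 lower with rosiglitazone, and of 829 probe sets with several symbols 19 (2.29%) differed, 16 higher and 3 lower. In the same fit 772 of 14824 probe sets with 1 symbol differed. The unnamed features with the highest differences were 17854185, with 8.60 ± 0.54 log2 units with rosiglitazone and 5.37 ± 0.21 with resveratrol (difference 3.23), and 17882165, with 5.91 ± 1.06 with rosiglitazone and 2.74 ± 0.35 with resveratrol (difference 3.17; SD, n = 5 each). The lowest were 17882123, with 4.96 ± 0.48 with rosiglitazone and 7.38 ± 0.25 with resveratrol (difference -2.42), and 17641230, with 2.48 ± 0.55 with rosiglitazone and 4.77 ± 0.37 with resveratrol (difference -2.29).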
